A study of Homo sapiens with 12 samples.

Results

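Described here are the genes in the deposited table of expressed genes whose Gencode symbol starts with LINC or SNHG followed by a digit. Most are annotated as long noncoding RNA genes. LINC00674, LINC00680, LINC01881 and LINC02210 are annotated as transcribed pseudogenes and LINC00999 as protein-coding. The rule took 134 of the 13264 genes in that table, 113 LINC genes and 21 SNHG genes, and the complete count table of 57370 genes held 2128 genes with such a symbol. Another 67 expressed genes carried a LINC or SNHG symbol only as an older name and were left out. The membership followed the symbol and the presence in the table, and no fold change was used. All members reached 1 CPM (the count of a gene scaled to a common library total) in at least 6 of the 12 libraries, whereas 3 of the 1994 genes left outside did so. The member with the lowest mean was LINC02595 (mean 1.02 CPM, 6 libraries at 1 CPM or more), and the gene left outside with the highest mean was LINC01116 (mean 1.29 CPM, 4 libraries at 1 CPM or more).

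The study sequenced RNA of HaCaT, an immortalized line of human keratinocytes. One line, HaCaT_sh, carried a doxycycline-inducible short hairpin RNA against IQGAP3, a scaffold protein, and the other, HaCaT_ctrl, carried a scrambled hairpin. Both lines were obtained by lentiviral transduction and selected with puromycin for stable clones, so a difference between the lines cannot be told apart from a difference between the selected cells. Doxycycline was given for 24 h before the cytokines and then together with them, and the sources used here do not say whether the cultures without cytokines received it. In the groups named HaCaT_ctrl+cyto and HaCaT_sh+cyto the medium then held 3 cytokines of psoriatic inflammation during 72 h, namely IFNγ at 20 ng/mL, TNFα at 25 and IL-17 at 100. Each of the 4 groups had 3 libraries labelled as biological replicates, with total counts between 13079055 and 17308021 and a correlation between replicates of 0.987 to 0.996 over genes. The design asks how the line, the cytokines and their combination shift RNA levels.

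Symbols with LINC mark intergenic long noncoding RNA genes that were named without a known function, although a few have since been given one. SNHG genes are hosts of small nucleolar RNAs (snoRNAs): the snoRNAs are cut from the introns and guide 2′-O-methylation or pseudouridylation of ribosomal RNA, while the spliced exons form a separate RNA. Many such exonic RNAs carry stop codons early in their reading frames and are turned over by nonsense-mediated decay, and many host genes start with a run of pyrimidines, as the genes of ribosomal proteins do. The libraries here report the level of the exonic RNA, and the short snoRNAs themselves were not analysed here.

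The annotated start of the SNHG genes is shown because it is a sequence feature that many of them shared and that the rule did not use. RefSeq promoter sequences (build GRCh38.p14, 250 bases before to 50 bases after each start) matched 97 of the 134 members, 18 of them SNHG genes. An oligopyrimidine start, a C followed by at least 4 bases of C or T beginning within 10 bases of the annotated start and read on the gene's strand, was found in 13 of the 18 SNHG promoters (72.2%), in 31 of the 86 LINC promoters (36.0%) and in 33.5% of all 35116 promoters of that length. Each line holds the 20 bases before and the 30 bases from the start of an SNHG gene whose level is described below, 5′ to 3′, with the pyrimidine run in capitals.
SNHG32, chr6:31834896-31834945, plus strand: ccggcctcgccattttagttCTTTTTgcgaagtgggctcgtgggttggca
SNHG19, chr16:2155329-2155378, minus strand: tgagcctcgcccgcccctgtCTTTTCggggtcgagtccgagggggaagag
SNHG5, chr6:85678704-85678753, minus strand: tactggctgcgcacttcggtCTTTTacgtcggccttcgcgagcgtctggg
SNHG17, chr20:38435299-38435348, minus strand: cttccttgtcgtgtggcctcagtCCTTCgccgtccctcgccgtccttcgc
SNHG16, chr17:76557744-76557793, plus strand: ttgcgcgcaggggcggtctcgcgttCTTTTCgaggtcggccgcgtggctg
In SNHG32, SNHG19 and SNHG5 the run began at the annotated start itself, and in SNHG17 and SNHG16 it began a few bases further in. These genes moved in different directions with the cytokines, as the values below show.

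The sites that interferon signalling is known to use were searched on both strands in the same windows. The GAS letters (TTCNNNGAA, bound by STAT factors) stood in 5.77% of the 104 promoters of members and in 7.66% of all promoters. The ISRE letters (GAAA, any 2 bases, then GAAA again, bound by interferon regulatory and ISGF3 factors) stood in 0 of the 104 and in 3.57% of all promoters. A TATAAA stood in 9.62% and 7.33%. Among the 19 promoters of members that rose with the cytokines in both lines, 2 held the GAS letters (10.5%), and among the 24 of members that fell in both lines 2 held them as well (8.33%). The former, of LINC00857 and LINC01619, are printed in full with the match in capitals.
LINC00857, chr10:80207460-80207759, plus strand: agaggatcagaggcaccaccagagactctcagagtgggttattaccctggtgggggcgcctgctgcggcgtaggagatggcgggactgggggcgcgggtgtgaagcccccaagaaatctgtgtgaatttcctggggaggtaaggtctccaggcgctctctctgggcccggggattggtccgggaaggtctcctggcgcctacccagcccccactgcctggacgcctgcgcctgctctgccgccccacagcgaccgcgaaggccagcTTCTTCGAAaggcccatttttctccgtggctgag
LINC01619, chr12:92142782-92143081, minus strand: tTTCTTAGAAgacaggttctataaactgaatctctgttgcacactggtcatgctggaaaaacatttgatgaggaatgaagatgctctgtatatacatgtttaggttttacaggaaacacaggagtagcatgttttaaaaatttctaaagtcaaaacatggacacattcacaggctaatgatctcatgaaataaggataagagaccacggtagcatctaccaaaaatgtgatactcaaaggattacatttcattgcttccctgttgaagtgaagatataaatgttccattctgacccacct
A match is a description of these letters and no evidence of binding.

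The level of the targeted gene is given first, because it checks the labels. In TMM-scaled CPM, IQGAP3 stood at 75.0, 70.4 and 77.3 in HaCaT_ctrl and at 115, 101 and 98.2 in the libraries labelled HaCaT_sh, so without cytokines its RNA was higher in the latter. With cytokines it was 1.89, 3.97 and 4.07 against 1.15, 1.64 and 0.913, a log2 difference of -1.44 that did not pass the threshold. It fell with the cytokines in HaCaT_ctrl and HaCaT_sh (log2 fold change -4.44 and -6.41). The test of the difference between these falls, the interaction, did pass (-1.95). The RNA level without cytokines thus goes against the label, and the line comparisons below are between libraries labelled HaCaT_sh and libraries labelled HaCaT_ctrl. TMM-scaled CPM are CPM of a library size corrected for RNA composition, and every level below is in this unit. All 10 keratinocyte markers were detected in all groups, but 3 fell and 2 rose with the cytokines in HaCaT_ctrl, and 2 fell and 3 rose in HaCaT_sh. KRT5, a basal keratin, went from a mean of 3704 to 73.0 in HaCaT_ctrl and from 4449 to 151 in HaCaT_sh, while LAMB3, a laminin chain, rose in both lines (2.08 and 2.37). Of the 13 markers of fibroblasts, leukocytes, endothelial cells and melanocytes, TYR had no count, 5 were tested, and the summed level of the list was 42.7 to 45.1 in HaCaT_ctrl, 40.7 to 53.6 in HaCaT_sh, 3.27 to 6.47 in HaCaT_ctrl+cyto and 8.38 to 11.4 in HaCaT_sh+cyto. All of those 5 (COL1A1, LUM, CDH5, VWF and PMEL) fell with the cytokines in both lines, LUM was also lower in HaCaT_sh (log2 fold change -1.32) and COL1A1 higher in HaCaT_sh+cyto (1.60), and their part in the results below was not tested. Of 6 genes known to respond to these cytokines 4 rose in each line. In cultures like these, fewer cells of a kind and less RNA per cell cannot be told apart.

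SNHG RNAs were the more abundant of the families. Per kilobase of the canonical transcript, the median level over the 12 libraries was 11.3 TMM-scaled CPM per kilobase for the 21 SNHG genes and 1.97 for the 111 LINC genes with a canonical transcript. SNHG29, which hosts SNORD49A, SNORD49B and SNORD65, led at 1506 per kilobase and held 49.9% of the summed SNHG level. It was followed by SNHG16 at 152 and SNHG32 at 93.9, and the lowest per kilobase was SNHG14 at 0.481. Among LINC genes the highest values per kilobase were those of LINC01503 (58.1), LINC02210 (53.4) and LINC00963 (50.4). The level of the whole gene was divided by the canonical transcript alone, which has 443 bases in SNHG29 and 288 in LINC02210. A short canonical transcript raises this value. Exons of LINC02210 also overlap those of LINC02210-CRHR1 on the same strand, so reads could be shared. Before the division LINC02210 had a mean of 15.4 TMM-scaled CPM, below LINC00963 (63.3), LINC01503 (56.6) and LINC00958 (40.1).

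The families also differed in structure and in replicate scatter. All 21 SNHG genes held between 1 and 83 annotated snoRNA genes, SNHG14 the most, and no LINC member held a snoRNA or a miRNA gene. The median canonical transcript had 1316 bases and 4 exons for SNHG genes and 1846 bases and 3 exons for LINC genes. The median coefficient of variation between the 3 replicates of a group was 4.0% to 12.4% for SNHG genes and 12.9% to 20.3% for the less abundant LINC genes. A LINC member therefore needed a larger shift to stand clear of its replicates.

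**Figure D1:**
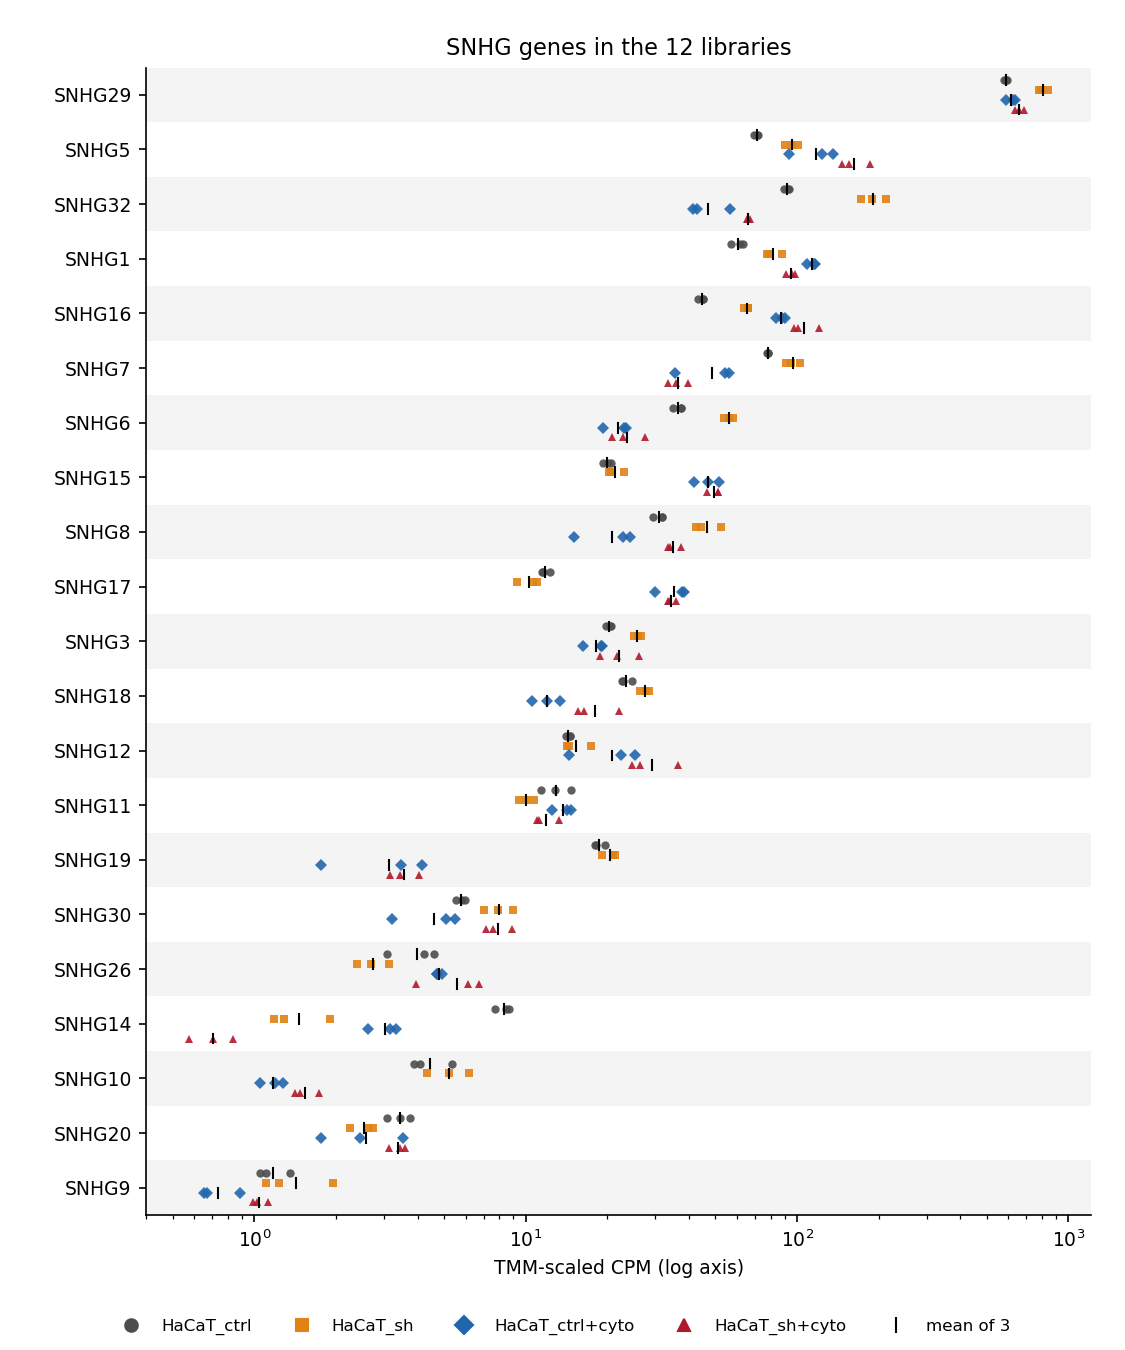
Level of each of the 21 SNHG genes in the 12 libraries, in TMM-scaled CPM on a log axis, with 1 point per library, colour and shape by group and a black tick at the mean of 3. SNHG29 stood between 578.6 and 843 in every library, SNHG14 was separated between the lines in both states, and SNHG19 fell from about 18 to 21 to between 1.76 and 4.16 with the cytokines.

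The first comparison asked how the lines differed without cytokines. A gene was called higher or lower at an adjusted p below 0.01 and a change of at least 2-fold (1 on the log2 scale). Of the 123 members tested, 5 were called higher and 16 lower in HaCaT_sh, beside 3.80% higher and 5.07% lower (8.87% in all) among the 13719 genes tested. The LINC genes had 4 higher and 15 lower among 102 (14.7% lower) and a median log2 fold change of -0.35, beside -0.0021 over all genes. A gene was also tested if it reached 1 CPM in the libraries of 1 line alone, and such a gene had to differ. In LINC02870, LINC02983, LINC01547 and LINC00638, all called lower, every HaCaT_ctrl library lay above 1 scaled CPM and every HaCaT_sh library below it. All genes tested passed the same filter, and its part in the LINC share was not tested. Other genes annotated as long noncoding had 34 higher and 118 lower among 927 (12.7% lower), without the limit to the expressed table.

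SNHG genes went the other way as a group. Their median log2 fold change was 0.28, 16 of 21 were on the positive side, and with library size alone in place of TMM the median was 0.22. The summed SNHG level was 1148 ± 16.2 (SD, n = 3) in HaCaT_ctrl and 1589 ± 72.5 in HaCaT_sh, while the summed LINC level was 811.1 ± 29.4 and 681 ± 25.2. In 11 of the 21 SNHG genes all HaCaT_sh libraries lay above all HaCaT_ctrl libraries, as they did in 32.9% of all genes tested, but only SNHG32 passed the 2-fold threshold. SNHG29 accounted for much of the sum, with 588, 593 and 579 in HaCaT_ctrl and 791, 781 and 843 in HaCaT_sh, a log2 fold change of 0.46 (SE 0.04, adjusted p = 3.18e-07) that stayed under 2-fold. SNHG6 (0.62), SNHG8 (0.58), SNHG16 (0.55), SNHG5 (0.44) and SNHG1 (0.43) likewise had log2 differences under 2-fold with groups that did not overlap.

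SNHG32, a host of SNORD48 and SNORD52 on chromosome 6 (31802385 to 31807543, plus strand, GRCh37) between genes of the major histocompatibility complex, stood at 92.3, 93.6 and 89.6 in HaCaT_ctrl and at 171, 188 and 213 in HaCaT_sh. It was called higher with a log2 fold change of 1.06 (SE 0.07, adjusted p = 4.08e-09), and the groups were far apart. The fold lay close to the threshold: without HaCaT_sh replicate 3 it was 0.98 and with library size alone 0.99, both under 2-fold.

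SNHG14 was called lower. It is a long transcript of the imprinted region on chromosome 15 (25223730 to 25665483, plus strand, GRCh37), which carries the SNORD116 and SNORD115 clusters and runs antisense into UBE3A. Its level was 8.68, 8.48 and 7.71 in HaCaT_ctrl and 1.29, 1.89 and 1.19 in HaCaT_sh, a log2 fold change of -2.50 (SE 0.17, adjusted p = 1.04e-08), or 5.67-fold. With cytokines the level was 2.61, 3.15 and 3.34 against 0.831, 0.575 and 0.702, a log2 fold change of -2.08 (SE 0.26, adjusted p = 0.000723). It was thus lower in the libraries labelled HaCaT_sh in both states, and exons of SNRPN on the same strand and of UBE3A on the opposite strand overlap it.

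Among LINC genes, LINC02870 on chromosome 10 (134257831 to 134262912) was the other member called lower in both states. It stood at 1.18, 1.63 and 1.46 in HaCaT_ctrl and at 0.280, 0.305 and 0.355 in HaCaT_sh (log2 fold change -2.16, SE 0.31, adjusted p = 2.65e-05). With cytokines it stood at 3.40, 3.27 and 4.80 against 1.41, 1.64 and 1.47 (log2 fold change -1.34, SE 0.24, adjusted p = 0.00387). The second call was not firm: it was lost when HaCaT_ctrl+cyto replicate 2 or 3 or any of the 3 HaCaT_sh+cyto libraries was left out, with adjusted p between 0.0103 and 0.0224 and the same direction.

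A further 14 LINC genes were called lower in HaCaT_sh. LINC02983 had 3.22, 2.26 and 2.48 against 0.728, 0.671 and 0.474 (log2 fold change -2.06). LINC01963 had 7.37, 7.66 and 8.25 against 2.46, 1.89 and 1.84 (-1.90). LINC01547, whose start lies 84 bases from the divergent start of SLX9, had 1.84, 1.51 and 1.67 against 0.616, 0.488 and 0.415 (-1.70). LINC00680 is annotated as a transcribed pseudogene, and its exons overlap those of another record of the same name on the same strand, so reads could be shared. It had 3.81, 2.96 and 2.70 against 1.34, 1.04 and 0.711 (-1.58), and LINC00638 had 1.51, 1.51 and 1.94 against 0.560, 0.549 and 0.829 (-1.35). The groups did not overlap in any of these genes, which was a condition for naming them. LINC02518 (-1.23) and LINC02902 (-1.09) were also called, and the values of both are given with the cytokines below. The call of LINC02902 was lost without HaCaT_ctrl replicate 2 (-0.93) and without HaCaT_sh replicate 1 (-0.997). The remaining 7 had log2 fold changes between -1.23 and -1.01.

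The 4 LINC genes called higher were LINC03078, LINC00900, LINC00887 and LINC01389. LINC03078 went from 1.12, 0.987 and 1.24 to 4.14, 3.72 and 4.21 (log2 fold change 1.85, SE 0.19, adjusted p = 7.47e-07). LINC00900 had 1.51, 1.28 and 0.647 against 3.08, 3.66 and 3.38 (1.58), and LINC00887 had 0.855, 1.74 and 0.755 against 2.91, 2.69 and 3.14 (1.38). In each case the lowest HaCaT_sh library lay above the highest HaCaT_ctrl library, which was a condition for naming them. LINC01389 had 2.76, 3.25 and 3.29 against 6.33, 7.94 and 5.57 (1.08), and without HaCaT_sh replicate 2 it was under 2-fold (0.94).

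**Figure D2:**
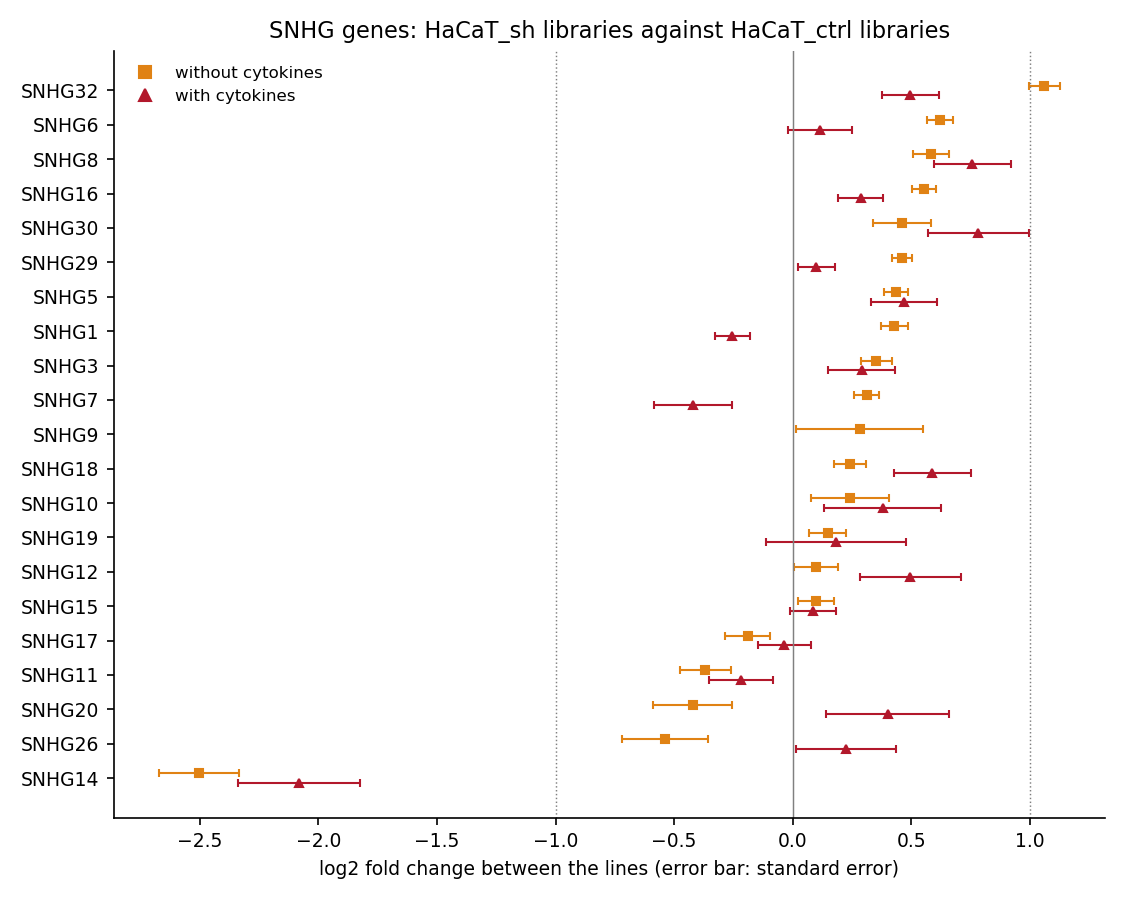
Log2 fold change of the libraries labelled HaCaT_sh against those labelled HaCaT_ctrl for each SNHG gene, without cytokines (squares, 21 genes) and with cytokines (triangles, 20 genes), with the standard error as bar and dotted lines at 2-fold. SNHG14 lay at -2.50 and -2.08, SNHG32 at 1.06 and 0.50, and 16 of 21 squares lay to the right of 0.

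With cytokines in both arms the lines differed in fewer members. Over all 12693 genes tested, 2.50% were called higher and 1.63% lower (4.13% in all) in HaCaT_sh+cyto than in HaCaT_ctrl+cyto, and of 106 members 2 were called higher and 4 lower. The LINC median was -0.13 (-0.066 without HaCaT_sh+cyto replicate 3) and the SNHG median 0.26, beside -0.0049 over all genes. The summed SNHG level was 1240 ± 44.2 (SD, n = 3) in HaCaT_ctrl+cyto and 1373 ± 75.4 in HaCaT_sh+cyto, and the summed LINC level 726.5 ± 42.4 and 661.5 ± 12.8. The line differences without and with cytokines had a Pearson r of 0.80 over 20 SNHG genes (16 of the same sign). Over 75 LINC genes r was 0.49 (45 of the same sign). Both values are given as a description over genes, which share libraries. SNHG14 was the only SNHG gene called lower in either state, and r without it was not computed.

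LINC01619 and LINC02984 were the members called higher. LINC01619 had 5.36, 6.17 and 7.29 in HaCaT_ctrl+cyto and 22.6, 22.1 and 25.8 in HaCaT_sh+cyto (log2 fold change 1.90, SE 0.14, adjusted p = 5.18e-05), with a wide gap between the groups. LINC02984 on chromosome 8 had 2.22, 3.08 and 3.40 against 8.89, 7.56 and 14.3 (1.82, SE 0.27, adjusted p = 0.00169), and without HaCaT_ctrl+cyto replicate 2 its adjusted p was 0.0113. Beside SNHG14 and LINC02870, the members called lower were LINC03014 and LINC00886. LINC03014 had 3.27, 3.21 and 2.91 against 1.02, 0.986 and 0.421 (-1.94, SE 0.30, adjusted p = 0.00205). LINC00886 had 4.12, 4.41 and 6.74 against 1.66, 1.81 and 0.913 (-1.80, SE 0.30, adjusted p = 0.00286). Without HaCaT_ctrl+cyto replicate 2 neither was called (adjusted p 0.0126 and 0.0113), and LINC00886 was not called without HaCaT_sh+cyto replicate 1 (0.0114).

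Cytokine stimulation moved many more members, in both directions and largely alike in the lines. In HaCaT_ctrl, 14.7% of all 13687 genes tested were called higher with cytokines and 21.1% lower, and of 133 members 33 were higher and 42 lower. In HaCaT_sh, 14.9% of 13480 genes were higher and 21.0% lower, and of 131 members 34 were higher and 46 lower. With library size alone the all-gene median moved from -0.026 to -0.24 in HaCaT_ctrl and from -0.023 to -0.23 in HaCaT_sh, and the all-gene calls in HaCaT_ctrl became 1504 higher and 3495 lower from 2017 and 2890. The changes below are relative to the TMM scaling.

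LINC genes held most of these calls. In HaCaT_ctrl, 30 of 112 LINC genes were higher (26.8%) and 39 lower (34.8%), with a median of -0.49, and in HaCaT_sh 31 of 110 were higher and 40 lower, also with a median of -0.49. Both shares lay above the background of all genes. Members that passed the filter through 1 state alone had to differ: 16 reached 1 CPM in all 6 libraries without cytokines and in none with them, and 9 the reverse. The filter bore on more members than these. At most 3 of the 6 libraries with cytokines reached 1 CPM in 35 members, and at most 3 of the 6 without them in 17. Other genes annotated as long noncoding had 12.2% higher and 40.6% lower in HaCaT_ctrl, a set that was not limited to the expressed table and so was filtered otherwise. Only 3 SNHG genes of 21 were higher and 3 lower in HaCaT_ctrl (median -0.30), against 3 and 6 in HaCaT_sh (median -0.21, and -0.11 without HaCaT_sh+cyto replicate 1).

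**Figure D3:**
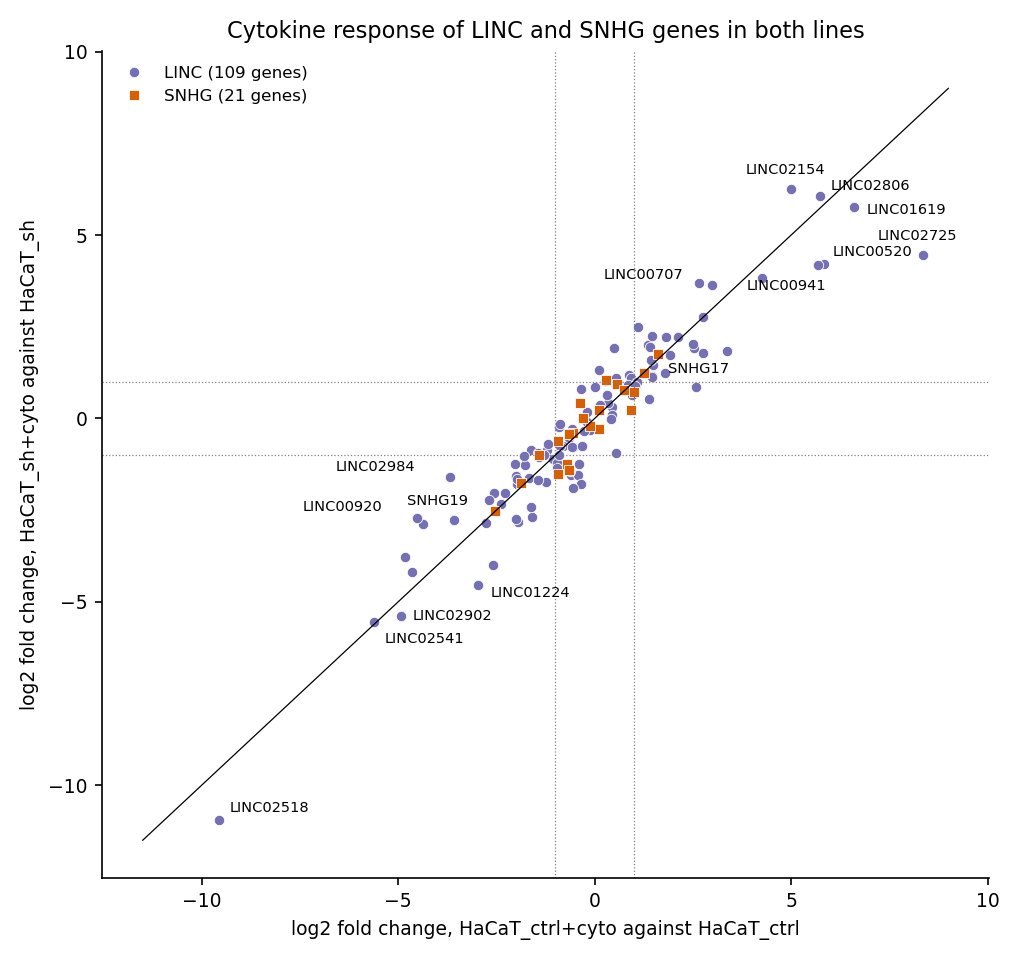
Log2 fold change with cytokines in HaCaT_ctrl (x axis) and in HaCaT_sh (y axis) for 109 LINC genes (circles) and 21 SNHG genes (squares) tested in both, with the line of equal response and dotted lines at 2-fold. LINC02518 lay lowest in both lines and LINC02725 farthest to the right, and the fitted values of these 2 depend on a prior count because a group held no or nearly no counts.

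The response in one line went with that in the other. Over the members tested in both, Pearson r was 0.94 for 109 LINC genes, of which 105 had the same sign, and 0.92 for 21 SNHG genes, of which 18 had the same sign. The libraries of the responses are separate, and these values describe genes and carry no p. Among the LINC genes 26 were called higher in both lines, 30 lower in both and 27 in neither, and none was called in opposite directions. Of all genes tested, 35.9% were called in either direction in each line. The shares of all genes called in both lines or in neither were not computed. The 26 that rose had a median level of 1.09 in HaCaT_ctrl and 6.39 in HaCaT_ctrl+cyto, and the 30 that fell went from 4.29 to 0.733.

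LINC02518 and LINC02541 showed the deepest falls that started from a high level. They lie 183372 bases apart on chromosome 6, LINC02518 at 113749742 to 113754757 and LINC02541 at 113938129 to 113971292, both on the minus strand. LINC02518 stood at 36.0, 42.7 and 34.9 in HaCaT_ctrl and at 0, 0.0630 and 0.0607 in HaCaT_ctrl+cyto, which is 1930 counts against 2 and a ratio of 902 with a 95% counting interval of 249.5 to 7456. In HaCaT_sh it went from 14, 19.1 and 15.3 to 0 in all 3 libraries, 820 counts against none, which makes it at least 224.9-fold lower (against a floor of 3 counts over the group). LINC02541 went from 25.3, 28.2 and 23.6 to 0.392, 0.441 and 0.668 in HaCaT_ctrl (log2 fold change -5.62, SE 0.19, adjusted p = 3.34e-09) and from 14.5, 16.9 and 13.5 to 0.192, 0.657 and 0.140 in HaCaT_sh (-5.55). Both were expressed at 13.5 scaled CPM or more before and near the detection limit after, in both lines.

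LINC02984, LINC00324, LINC00920 and LINC01224 fell as well. LINC02984 went from 37.6, 38.7 and 38.2 to 2.22, 3.08 and 3.40 in HaCaT_ctrl (log2 fold change -3.68, SE 0.13, adjusted p = 5.72e-09). LINC00324 went from 8.48, 8.01 and 8.41 to 0.327, 0.315 and 0.304 (-4.66, SE 0.20, adjusted p = 1.75e-08) and by -4.19 in HaCaT_sh. LINC01224 went from 9.47, 9.12 and 9.54 to 0.980, 1.45 and 1.09 (-2.96) in HaCaT_ctrl and from 8.68, 10.9 and 9.36 to 0.192, 0.411 and 0.632 (-4.54) in HaCaT_sh. In HaCaT_ctrl the states were far apart in each of these genes. In HaCaT_sh+cyto the libraries of LINC01224 and LINC02984 (8.89, 7.56 and 14.3) were scattered relative to their mean. LINC00324, LINC00920 and LINC01224 were named among genes whose groups do not overlap. LINC00920 lies 3732 bases from CDH5, an endothelial cadherin gene that is among the markers of other cell types, and both fell: LINC00920 by 4.52 and 2.70 and CDH5 by 3.96 and 5.83 on the log2 scale in HaCaT_ctrl and HaCaT_sh.

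Further LINC genes fell in both lines. LINC00479 on chromosome 21 went from 3.49, 5.57 and 4.31 to 0.131, 0.126 and 0.182 in HaCaT_ctrl (log2 fold change -4.83) and by -3.79 in HaCaT_sh, and RIPK4, the nearest coding gene at 23594 bases and a kinase gene of epidermal differentiation, also fell in both lines (-2.78 and -2.55). LINC02902 went from 2.89, 3.42 and 2.27 to 0, 0.0630 and 0.182 (-4.94) in HaCaT_ctrl, and in HaCaT_sh from 68 counts to 1, a ratio of 55.95 with a 95% counting interval of 9.71 to 2242. LINC01389 was lower in both (-2.58 and -3.99). LINC00842, whose exons overlap those of ANXA8L1, was lower by a log2 fold change of -1.07 and -1.10, and these calls passed under 2-fold without HaCaT_ctrl+cyto replicate 1 (-0.91) or HaCaT_sh+cyto replicate 3 (-0.88).

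The largest rises began from almost no RNA. LINC01619 on chromosome 12 (92378752 to 92536690, minus strand) had 3 counts over the HaCaT_ctrl libraries and 300 over the HaCaT_ctrl+cyto libraries, a ratio of 107 with a 95% counting interval of 36.2 to 521.5. In HaCaT_sh it went from 0.560, 0.366 and 0.355 to 22.6, 22.1 and 25.8 (log2 fold change 5.76, SE 0.18, adjusted p = 9.05e-10). Its exons overlap those of BTG1, an antiproliferative gene on the same strand, which rose by 2.27 and 2.22, so reads of the BTG1 end could be shared. LINC02725 had no count in HaCaT_ctrl and 117 in HaCaT_ctrl+cyto, at least 41.7-fold higher, and in HaCaT_sh it went from 0.112, 0.0611 and 0.0592 to 2.05, 1.89 and 1.69 (4.46). LINC02806 went from 3 counts to 166 (ratio 59.2, 95% counting interval 19.9 to 289.9) and, in HaCaT_sh, from 1 count to 76 (ratio 92.4, interval 16.1 to 3696).

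LINC00520, LINC00941 and LINC02154 behaved likewise. LINC00520 went from 0.0658, 0.116 and 0.108 to 6.08, 5.10 and 6.62 in HaCaT_ctrl (log2 fold change 5.84, SE 0.30) and by 4.21 in HaCaT_sh. LINC00941, a transcript known to hold back differentiation of human keratinocytes, went from 0, 0.232 and 0.162 to 5.09, 6.99 and 9.53 (5.67, SE 0.46) and in HaCaT_sh from 0.280, 0.427 and 0.415 to 8.25, 7.56 and 4.77 (4.19). LINC02154 on the X chromosome went from 0, 0.348 and 0.270 to 5.42, 7.30 and 8.26 (5.0) and by 6.26 in HaCaT_sh. All were close to the detection limit in every library without cytokines and between 4.77 and 13.2 in every library with them.

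LINC00707, LINC00958 and LINC01133 were already expressed before the cytokines. LINC00707 on chromosome 10 went from 5.46, 4.24 and 7.44 to 38.7, 41.5 and 52.9 in HaCaT_ctrl (log2 fold change 2.98, SE 0.19, adjusted p = 2.35e-07) and from 5.54, 5.37 and 4.92 to 66.2, 71.1 and 57.4 in HaCaT_sh (3.63). LINC00958 on chromosome 11 went from 13.2, 11.2 and 14.2 to 71.4, 67.9 and 74.1 (2.49, SE 0.10, adjusted p = 8.28e-09) and by 2.02 in HaCaT_sh, and TEAD1, a coding gene 16804 bases away that encodes a transcription factor of the Hippo pathway, also rose in both lines (1.48 and 1.40). LINC01133 went from 21.3, 20.8 and 21.6 to 62.6, 45.6 and 54.6 in HaCaT_ctrl (1.39, SE 0.11) and from 20.6, 21.7 and 21.4 to 24.4, 28.7 and 38.6 in HaCaT_sh (0.53, not called). The interaction for LINC01133 had a log2 value of -0.83 and an adjusted p of 0.0102, which missed the threshold. The abundant LINC00963 (-0.58 and -0.29) was called in neither line, and LINC01503 was called lower in HaCaT_sh alone (-1.43, against -0.62 in HaCaT_ctrl). Its HaCaT_ctrl+cyto libraries were scattered (31.0, 47.0 and 59.1). The interaction for LINC01503 was not called, but it was without HaCaT_ctrl+cyto replicate 1 (-1.01, adjusted p = 0.000326).

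**Figure D4:**
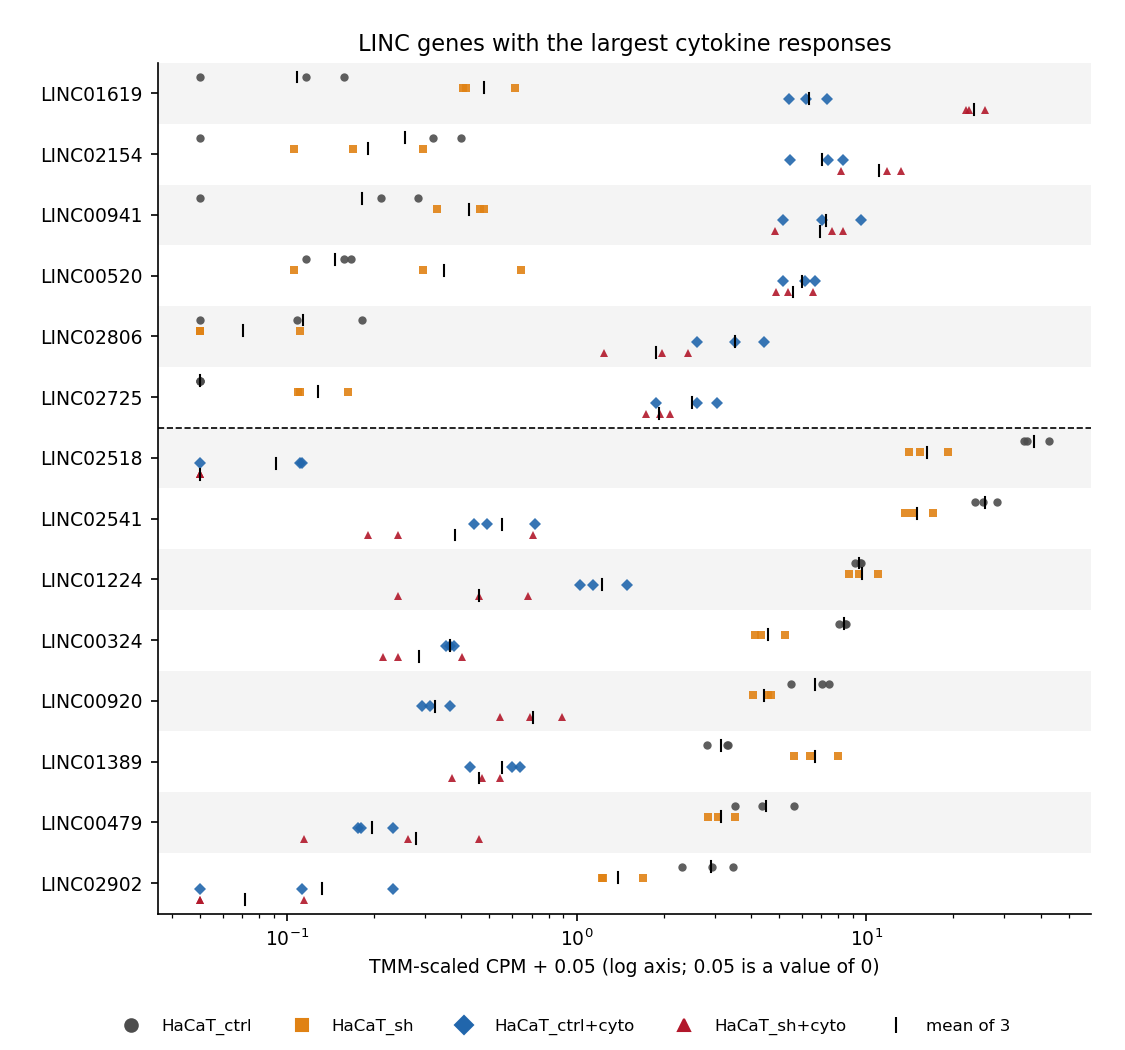
Level in the 12 libraries of the LINC genes with the largest cytokine responses, in TMM-scaled CPM with 0.05 added so that values of 0 can be drawn on a log axis, with 1 point per library and a black tick at the mean of 3. Above the dashed line stand the genes that rose and below it those that fell, and LINC02518 reached 0 in all 3 HaCaT_sh+cyto libraries.

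SNHG15 and SNHG17 rose with the cytokines in both lines. SNHG17, which hosts the SNORA71 snoRNAs on chromosome 20, went from 11.6, 12.3 and 11.5 to 37.6, 38.3 and 29.9 in HaCaT_ctrl (log2 fold change 1.61, SE 0.11, adjusted p = 5.67e-07) and from 10.6, 9.28 and 11 to 33.6, 33.4 and 35.9 in HaCaT_sh (1.75, SE 0.09). SNHG15, host of SNORA9, went from 19.2, 20.6 and 20.1 to 51.6, 47.0 and 41.7 (1.26, SE 0.09, adjusted p = 8.26e-07) and by 1.23 in HaCaT_sh. SNHG11, whose body lies 10934 bases from SNHG17, was not called (0.11 and 0.24). SNHG16, host of SNORD1A to SNORD1C, went from 43.1, 45.2 and 45.1 to 90.1, 83.8 and 87.7 in HaCaT_ctrl and was called at a log2 fold change of 1.001, just at the threshold. That call was lost without HaCaT_ctrl replicate 1 (0.98), without HaCaT_ctrl+cyto replicate 1 (0.98), without HaCaT_ctrl+cyto replicate 3 (0.998) and with library size alone (0.79), and in HaCaT_sh the value was 0.72.

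SNHG10, SNHG19 and SNHG14 fell in both lines. SNHG19, host of SNORD60, went from 18.1, 19.6 and 18.0 to 3.46, 4.16 and 1.76 in HaCaT_ctrl (log2 fold change -2.54, SE 0.22, adjusted p = 2.18e-06) and from 20.9, 19.1 and 21.4 to 3.45, 4.03 and 3.16 in HaCaT_sh (-2.52, SE 0.13). SNHG10, host of SCARNA13, went from 4.08, 5.34 and 3.88 to 1.04, 1.20 and 1.27 (-1.88, SE 0.21) and by -1.76 in HaCaT_sh. For SNHG19 the libraries of the lines overlapped in both states. SNHG14 fell by 1.41 in HaCaT_ctrl and by 1.01 in HaCaT_sh, and the second call was lost with RLE scaling (-0.99), in DESeq2 (adjusted p 0.0398) and without HaCaT_sh replicate 1 or 2 or any of the HaCaT_sh+cyto replicates (adjusted p 0.0149 to 0.0394).

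SNHG32, SNHG6 and SNHG7 were called lower with cytokines in HaCaT_sh but not in HaCaT_ctrl. SNHG32 went from 171, 188 and 213 to 65.7, 65.3 and 67.1 in HaCaT_sh (log2 fold change -1.52, SE 0.08, adjusted p = 3.44e-08) and from 92.3, 93.6 and 89.6 to 41.3, 56.4 and 42.9 in HaCaT_ctrl (-0.94). SNHG6, host of SNORD87, had -1.23 and -0.71, and SNHG7, host of SNORA17A and SNORA17B, -1.39 and -0.65. The test of the difference gave no call for these genes: the interaction was -0.56 (adjusted p = 0.0144), -0.50 (0.0221) and -0.73 (0.0121). SNHG26 was called higher in HaCaT_sh (1.04), a call lost without HaCaT_sh replicate 2 (0.95), HaCaT_sh+cyto replicate 1 (0.95) or HaCaT_sh+cyto replicate 2 (0.89), and had 0.29 in HaCaT_ctrl.

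The other 11 SNHG genes were called in neither line. SNHG1, with 8 snoRNA genes inside and 51 bases from the divergent start of SLC3A2, an amino acid transporter subunit gene that rose (2.81 and 2.34), had 57.0, 63.3 and 61.6 against 109, 115 and 117 in HaCaT_ctrl (log2 fold change 0.93) and 77.6, 79.1 and 87.7 against 98.2, 91.1 and 95.6 in HaCaT_sh (0.23). Its interaction was -0.68 (adjusted p = 0.00028), under 2-fold. SNHG5, the host of SNORD50A and SNORD50B, had 0.76 and 0.78, SNHG12 had 0.56 and 0.94 and SNHG18 had -0.93 and -0.60. SNHG29 had 0.10 and -0.28, so the most abundant SNHG RNA stayed under 2-fold in every comparison made. SNHG8 (-0.55 and -0.40), SNHG20 (-0.38 and 0.43), SNHG30 (-0.30 and 0.00), SNHG3 (-0.13 and -0.21) and SNHG9 (-0.64 and -0.44) complete the set. HaCaT_ctrl+cyto replicate 3 was the lowest of its group for 11 of the 21 SNHG genes, and without it the SNHG median in HaCaT_ctrl was -0.16.

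The interaction over all 12 libraries asked whether the cytokine response itself differed between the lines. Of all 13296 genes tested, 1.40% were called with a more positive response in HaCaT_sh and 1.23% with a more negative one (2.62% in all), and of the 134 members 3 and 2 were, all of them LINC genes. No SNHG gene was called by edgeR's quasi-likelihood test or by DESeq2, and at an unadjusted p below 0.05 there were 2 and 6 SNHG genes of 21, beside 2105 and 2193 of all 13296. LINC02984 had the firmest: it fell from a mean of 38.1 to 2.90 in HaCaT_ctrl and from 26.6, 34.4 and 33.8 to 8.89, 7.56 and 14.3 in HaCaT_sh, an interaction of 2.09 on the log2 scale (SE 0.28, adjusted p = 0.000232). LINC00900 rose from 1.51, 1.28 and 0.647 to 5.81, 7.43 and 6.62 in HaCaT_ctrl, while in HaCaT_sh it had 3.08, 3.66 and 3.38 before and 6.14, 6.82 and 5.41 after (interaction -1.70, SE 0.30, adjusted p = 0.00167). The lines thus started apart and ended together. LINC00680 went the other way, from a lower start in HaCaT_sh to 6.97, 5.83 and 4.63, beside 6.79, 6.04 and 6.86 in HaCaT_ctrl+cyto (1.42, SE 0.31, adjusted p = 0.00628).

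LINC00920 and LINC02057 were called with less room. LINC00920 had 7.37, 6.97 and 5.45 against 0.261, 0.315 and 0.243 in HaCaT_ctrl and 4.65, 4.52 and 4.03 against 0.639, 0.493 and 0.842 in HaCaT_sh (interaction 1.84, SE 0.42, adjusted p = 0.0075). LINC02057 had 2.50, 2.26 and 2.16 against 1.57, 1.76 and 2.00 in HaCaT_ctrl (not called) and 2.58, 4.46 and 3.56 against 0.959, 1.23 and 0.842 in HaCaT_sh (-1.44, SE 0.34, adjusted p = 0.00982). For LINC00680 and these 2 genes the adjusted p passed 0.01 under many of the omissions of 1 library. The call of LINC00680 was lost without replicate 1 or 2 of HaCaT_ctrl, 2 or 3 of HaCaT_sh, 2 of HaCaT_ctrl+cyto or 1 or 2 of HaCaT_sh+cyto (interaction 1.21 to 1.46, adjusted p 0.0117 to 0.0253). That of LINC00920 was lost without any library other than HaCaT_ctrl replicate 3 and HaCaT_sh+cyto replicate 2 (1.62 to 1.95, adjusted p 0.0117 to 0.0271), and that of LINC02057 without any other than HaCaT_sh replicate 1 and HaCaT_ctrl+cyto replicate 1 (-1.60 to -1.24, adjusted p 0.011 to 0.0293). The signs were the same throughout, and LINC00900 and LINC02984 kept their calls under all 12 omissions.

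**Figure D5:**
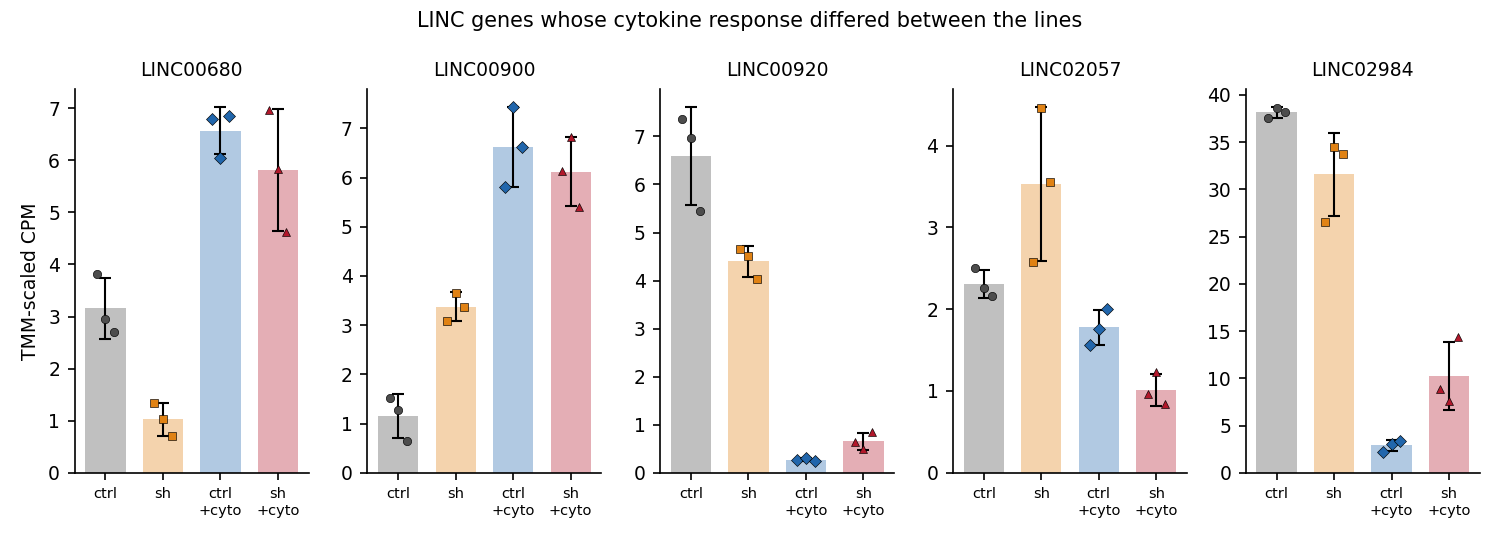
Level of the 5 LINC genes called in the interaction, in TMM-scaled CPM on linear axes from 0, with a bar for the mean of 3 libraries, the SD as error bar and 1 point per library. LINC00900 and LINC00680 differed between the lines before the cytokines and hardly after, and LINC02984 was higher in HaCaT_sh+cyto than in HaCaT_ctrl+cyto.

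Other genes of snoRNA biology gave a frame for the SNHG values. Of the 6 tested members of a list of other snoRNA hosts, ZFAS1 rose (log2 fold change 1.04) and DANCR fell (-1.49) with cytokines in HaCaT_ctrl, none was called in HaCaT_sh, and GAS5 stayed under 2-fold (0.77 and 0.39). Without cytokines GAS5 (0.65), ZFAS1 (0.63), TAF1D (0.65) and EPB41L4A-AS1 (0.84) were higher in the libraries labelled HaCaT_sh with groups that did not overlap, none of them by 2-fold. Of all genes tested, 32.9% had all HaCaT_sh libraries above all HaCaT_ctrl libraries. DANCR went the other way without overlap, from 17.4, 17.2 and 17.7 in HaCaT_ctrl to 12.4, 11.4 and 10.7 in HaCaT_sh. Of 12 genes for snoRNP proteins, which package and act with the snoRNAs, 4 were called higher in HaCaT_ctrl and 5 in HaCaT_sh, and none lower. Over all genes tested, 14.7% and 14.9% were called higher. Among those called were NOP58 (1.68 and 1.79) and NOP56 (1.45 and 1.60), both core proteins of C/D box particles. DKC1 (1.40 and 1.61), the pseudouridine synthase, and NOLC1 (1.70 and 1.87) were called as well. FBL, on the same list, went the other way without a call, from a mean of 94.5 to 69.1 in HaCaT_ctrl and from 134.5 to 92.0 in HaCaT_sh. In each line 10 of the 12 had a positive log2 fold change. The list's median was 0.58 and 0.73, beside -0.026 and -0.023 over all genes. Of 12 factors of nonsense-mediated decay, 3 were called higher in each line and none lower, beside the same 14.7% and 14.9% of all genes. They included SMG1 (1.5 and 1.72) and DHX34 (1.17 and 1.04) in both and NBAS (1.26) in HaCaT_ctrl. No gene of these 3 lists was called between the lines in either state by edgeR's quasi-likelihood test. At an unadjusted p below 0.05, 4 hosts, 3 snoRNP genes and 5 decay factors were higher and 1, 7 and 5 lower in HaCaT_sh without cytokines, beside 4504 and 4541 of all 13719 genes. With cytokines 3, 3 and 2 were higher and 0, 1 and 3 lower, beside 2534 and 2667 of 12693.

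Among 23 other long noncoding RNAs with a name of their own, 20 were tested in HaCaT_ctrl and 19 in HaCaT_sh, and 1 rose and 6 fell in HaCaT_ctrl against 3 and 3 in HaCaT_sh. HOTAIR, transcribed from the HOXC cluster, fell in both (-2.95 and -3.21), as did CRNDE (-1.26 and -1.75) and DLEU2 (-1.43 and -1.13), and PVT1 rose in both (1.31 and 1.09). H19, an imprinted gene, differed most between the lines without cytokines: it stood at 47.4, 44.9 and 42.8 in HaCaT_ctrl and at 0.672, 0.672 and 0.770 in HaCaT_sh (log2 fold change -5.98, SE 0.12, adjusted p = 7.31e-14). TINCR, which acts in epidermal differentiation in human cells, was higher in the HaCaT_sh libraries in both states (1.10 and 1.59).

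Position along the genome was compared with the direction of the members. The members lie on 22 chromosomes, 11 start within 2000 bases of a divergent coding start, and 30 overlap the body of a coding gene. Of the members called higher with cytokines in HaCaT_ctrl, 5 of 20 with a tested nearest coding gene had a neighbour called higher too, and of those called lower 8 of 35 had a neighbour called lower. In HaCaT_sh these counts were 9 of 24 and 9 of 34. A neighbour was called in the opposite direction for 2 of the 20 and 2 of the 35 in HaCaT_ctrl, and for 1 of the 24 and 2 of the 34 in HaCaT_sh. The neighbours whose cytokine values are given above moved in the direction of their member and do not stand for all of them. Of all coding genes tested, 14.7% were called higher and 19.5% lower in HaCaT_ctrl, and 14.7% and 19.7% in HaCaT_sh. Between the lines without cytokines, 1 of 14 members called lower had a neighbour called lower.

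Pairs of members close to each other did not always move together. Within 250 kb there were 10 pairs. LINC02518 and LINC02541 fell together, and LINC01204 (2.66 and 3.68) and LINC02595 (1.44 and 1.58) on the X chromosome rose together in both lines. LINC02983 and LINC03073 overlap on opposite strands on chromosome 7, and with cytokines in HaCaT_sh the first rose by 1.91 and the second fell by 1.04 on the log2 scale. LINC03015 and LINC03014 lie 22 bases apart, and LINC03015 was called lower in HaCaT_ctrl (-1.42) and LINC03014 in HaCaT_sh (-1.91). Exons of 25 members overlap exons of another gene on the same strand and those of 41 on the opposite strand. The strand setting of the counting is not given in the sources used here, so for overlapping genes a share of the reads may be the neighbour's.

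In 24 LINC and 11 SNHG genes no comparison gave a call, the interaction included. They include SNHG29, SNHG1, SNHG5 and LINC00963, which are among the most abundant members. The share of all genes without a call in any comparison was not computed.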

How the data were processed

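RNA of 12 HaCaT cultures was sequenced as strand-specific read pairs. The authors trimmed reads with Cutadapt and aligned them to hg19 with STAR and Gencode annotation. Sources used here name neither the counting program nor its strand setting. All values were computed from the deposited table of whole counts per gene. A second table, given by the authors as CPM, is a scaled signal (library sizes 1.0171 to 1.0189 times the TMM sizes computed here) and only defined the members. Columns of the authors' comparisons were not used. Some genes of the other lists are not reported here.

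Groups followed the labels. For a comparison, the 6 libraries concerned and genes at 1 CPM or more in at least 50% of them were scaled by TMM and tested with the quasi-likelihood method of edgeR (edgeR 4.0.16, limma 3.58.1, R 4.3.3), and p-values were adjusted by Benjamini-Hochberg over all genes tested. The interaction used 12 libraries. The common biological coefficient of variation was 4.65% to 11%. Standard errors were the log2 fold change divided by the square root of F. Ratios of counts carry exact 95% intervals for counting error only. Summaries and plots used Python 3.11.15, pandas 2.3.3, numpy 2.4.6 and matplotlib 3.10.9. The procedure was tested on simulated data.

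Symbols and positions came from Gencode 44 lifted to GRCh37, which named 55010 genes. It is a later release than the one the authors aligned with. Exon overlaps and levels per kilobase thus set gene models of the later release beside the authors' counts. Promoters, and snoRNA genes inside members, came from RefSeq (GRCh38.p14). The members and lists were chosen with earlier results of these data known. Named were every SNHG gene, the 6 LINC genes with the highest mean, up to 6 largest increases and decreases among called LINC genes with groups that do not overlap in each pairwise comparison, members called in the interaction, and up to 4 called genes of each other list. Members outside this rule, named for a neighbour, a pair, a motif or the edge of the membership, were chosen after their values were seen, as were further list genes. Alternatives were DESeq2 (1.42.0), the likelihood ratio test, RLE scaling, library size alone, no filter, an adjusted p below 0.05, all libraries in 1 fit, older symbols added, a block for the replicate number and the omission of each library.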

Additional observations from a re-analysis of the deposited data

Results flagged for a closer look

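The cytokine response of 5 LINC genes differed between the lines by a test of the difference itself, the interaction of line and cytokines in edgeR's quasi-likelihood fit over 12 libraries. The log2 differences of the response, HaCaT_sh minus HaCaT_ctrl, were 2.09 for LINC02984 (adjusted p = 0.000232), -1.70 for LINC00900 (adjusted p = 0.00167), 1.84 for LINC00920 (adjusted p = 0.0075), 1.42 for LINC00680 (adjusted p = 0.00628) and -1.44 for LINC02057 (adjusted p = 0.00982). Of all genes tested, 1.40% had a more positive and 1.23% a more negative response by this rule, and of the 134 members 3 and 2. In LINC02984 the fall was shallower in all 3 HaCaT_sh+cyto libraries (7.56 to 14.3 scaled CPM) than in any HaCaT_ctrl+cyto library (2.22 to 3.40). In LINC00680 and LINC00900 the groups with cytokines overlapped between the lines and the groups without did not.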

How the results depend on the processing

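The counts of members called moved by over 1.5 times between the lines with cytokines and in the interaction, and single calls were lost or gained in the other comparisons too. In HaCaT_sh+cyto against HaCaT_ctrl+cyto, the 4 members called lower were 7 at an adjusted p below 0.05 and 7 with all 12 libraries in 1 fit. For the interaction, the 3 members with a more positive response were 5 at an adjusted p below 0.05, 5 in the likelihood ratio test and 5 with no filter, and the 2 with a more negative response were 7 at an adjusted p below 0.05, 4 in DESeq2, 6 in the likelihood ratio test and 6 with no filter. The cause was not tested. The replicate numbers do not pair the samples: deviations of libraries with the same number correlated at -0.135 to 0.197 and those with different numbers at -0.234 to 0.250. With the replicate number as a block, the counts called higher and lower were 5 and 16 for HaCaT_sh against HaCaT_ctrl, 33 and 42 for the cytokines in HaCaT_ctrl, 35 and 45 in HaCaT_sh, 2 and 2 between the lines with cytokines, and 3 and 1 for the interaction. Leaving out 1 library gave 4 to 6 higher and 13 to 16 lower between the lines without cytokines, 31 to 35 and 40 to 44 for the cytokines in HaCaT_ctrl, 32 to 33 and 42 to 49 in HaCaT_sh, 1 to 3 and 1 to 5 between the lines with cytokines, and 1 to 4 and 1 to 5 for the interaction. The SNHG median in the interaction, 0.14, reversed to -0.0079 without HaCaT_ctrl+cyto replicate 3 and ranged up to 0.1735 over the other omissions. With library size alone the medians with cytokines were -0.70 for LINC genes in both lines and -0.52 and -0.42 for SNHG genes in HaCaT_ctrl and HaCaT_sh, beside all-gene medians of -0.24 and -0.23. For the calls of named members, each call was counted once under each setting. Over the settings that keep all libraries, 720 of these kept their side of the threshold and 11 fell short of it. Over those that leave 1 out, the counts were 528 and 54. The 720 include the setting with an adjusted p below 0.05, under which no call made at 0.01 could be lost.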
